A study of Mus musculus with 9 samples.

Results

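T cell genes, as the term is used here, are 34 mouse genes of the T cell receptor complex, its signalling chain, T cell surface proteins and the transcription factors of the T cell lineage. They were read on whole-lung microarrays by the probe sets whose only gene symbol in the array annotation is that of a member. Of the 34 genes, 32 had such a probe set (60 probe sets in all), out of 18193 genes named on the array, and the other 2 are not analysed here. Of these 32 genes, 21 were bright enough to be tested, out of 11984 tested genes, and 11 were not. All lungs came from female C57BL/6 mice aged 14 weeks, and were taken 14 days after a replication-deficient adenovirus had been given into the trachea. The virus carried mouse interleukin-4 in AdV-IL4 mice (n = 3), the splice variant IL-4d2 in AdV-IL4d2 mice (n = 3) and no cytokine in AdV-NULL mice (n = 3). Every group was therefore infected, and the comparisons set a virus with a cytokine gene against an empty virus and the 2 cytokine viruses against each other. Each array holds RNA of 1 homogenised lung, so in these bulk samples fewer cells of a type and less RNA per cell cannot be told apart.

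A T cell recognises antigen through a receptor whose variable chains are held in a complex with the CD3 chains and the zeta chain. These chains carry the motifs that kinases phosphorylate, the kinase Zap70 then docks on them, and Zap70 phosphorylates the adaptors Lat and Lcp2, from which calcium, Ras and protein kinase C signals start. Interleukin-4 is the cytokine that directs naive CD4 T cells to the type 2 helper fate, in which the transcription factor Gata3 is induced. Such T cells are known from allergic airway disease.

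Il4, whose coding sequence the cytokine viruses carry, served as the check of the labels and was higher on all 6 arrays with a cytokine virus than on the AdV-NULL arrays. The Il4 probe set read 378.6, 300.6 and 335.2 in AdV-IL4 lungs, 1172, 944.5 and 499.1 in AdV-IL4d2 lungs and 43.11, 15.84 and 71.61 in AdV-NULL lungs. All values are MAS5 signals, a linear brightness scale that was brought to the same trimmed mean on every array. The log2 difference from AdV-NULL was 2.69 in AdV-IL4 lungs (6.43-fold, limma adjusted p = 0.000836) and 3.93 in AdV-IL4d2 lungs (15.3-fold, limma adjusted p = 7.69e-05). AdV-IL4 and AdV-IL4d2 lungs did not differ past the threshold in Il4 (log2 -1.25, limma adjusted p = 0.104), although every AdV-IL4d2 array lay above every AdV-IL4 array. The probe set rose with both viruses, so it checks a cytokine virus against the empty virus and not which cytokine virus a lung received. Its AdV-NULL signals were below the array medians, so it passed the filter only through the arrays with a cytokine virus.

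The arrays also differed in content other than T cells. The mean log2 level of 13 heart and skeletal muscle markers was 7.16 to 8.72 on AdV-IL4 arrays, 8.32 to 9.60 on AdV-IL4d2 arrays and 9.35 to 11.89 on AdV-NULL arrays, with AdV-NULL mouse 1 at the top and AdV-IL4 mouse 2 at the bottom. Of the 12 muscle markers tested, 8 fell in AdV-IL4 lungs against AdV-NULL lungs, beside 6.63% of all tested genes. The 3'/5' signal ratio of Gapdh, a measure of RNA integrity, averaged 1.71 ± 0.143 on AdV-IL4 arrays, 1.46 ± 0.112 on AdV-IL4d2 arrays and 1.28 ± 0.284 on AdV-NULL arrays (SD, n = 3 each). The two-sided exact permutation p was 0.1 for AdV-IL4 against AdV-NULL, the smallest that 3 against 3 arrays can give, and 0.4 for AdV-IL4d2 against AdV-NULL. The same ratio of Actb averaged 3.23 ± 0.486 on AdV-IL4 arrays, 2.58 ± 0.226 on AdV-IL4d2 arrays and 2.65 ± 0.324 on AdV-NULL arrays (SD, n = 3 each), with a two-sided exact permutation p of 0.3 for AdV-IL4 and 0.7 for AdV-IL4d2 against AdV-NULL. The part of muscle content and RNA integrity in the results on T cell genes was not tested beyond leaving out the 2 muscle extremes, which is given beside the counts.

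The promoters of 3 genes are shown because Cd3g and Lat were called in lungs with a cytokine virus and Cd3d lies head to head with Cd3g. The start sites of Cd3d and Cd3g are 1355 bases apart on chromosome 9. Each sequence runs from 250 bases before the start site to 50 bases from it, is taken from RefSeq (build GRCm38.p6) and is written 5' to 3' on the gene's own strand. Capitals mark matches on either strand to AGGAAG, the core of many ETS factor sites, or to TGTGGT, the core of RUNX factor sites, both of them families of lymphocyte transcription factors.
Cd3g, chr9:44980382-44980681, minus strand: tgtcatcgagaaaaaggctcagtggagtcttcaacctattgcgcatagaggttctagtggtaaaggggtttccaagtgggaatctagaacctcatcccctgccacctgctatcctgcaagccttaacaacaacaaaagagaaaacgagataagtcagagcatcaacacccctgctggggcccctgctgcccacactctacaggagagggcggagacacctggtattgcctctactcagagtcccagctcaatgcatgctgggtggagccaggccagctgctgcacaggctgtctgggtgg
Cd3d, chr9:44981536-44981835, plus strand: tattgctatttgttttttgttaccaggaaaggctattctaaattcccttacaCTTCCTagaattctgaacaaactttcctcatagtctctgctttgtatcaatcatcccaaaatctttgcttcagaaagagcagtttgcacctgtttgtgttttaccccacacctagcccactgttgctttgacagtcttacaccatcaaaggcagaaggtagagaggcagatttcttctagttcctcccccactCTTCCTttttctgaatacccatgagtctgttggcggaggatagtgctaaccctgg
Lat, chr7:126369519-126369818, minus strand: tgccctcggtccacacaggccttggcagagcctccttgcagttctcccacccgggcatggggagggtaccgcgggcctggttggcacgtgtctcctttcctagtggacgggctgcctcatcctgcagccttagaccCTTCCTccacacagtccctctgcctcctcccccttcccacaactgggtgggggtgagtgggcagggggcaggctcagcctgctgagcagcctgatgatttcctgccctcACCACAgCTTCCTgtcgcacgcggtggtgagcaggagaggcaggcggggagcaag
AGGAAG was found at 2 places each in the Cd3d and Lat windows, every time on the opposite strand, and TGTGGT at 1 place in the Lat window. The Cd3g window held neither, and TATAAA, the core of the TATA box, was in none of the 3. Of 32851 mouse promoters of this length, 35.4% held AGGAAG, 16.8% held TGTGGT and 13.6% held TATAAA, so these matches are common and are given as a description. RefSeq promoters were matched by symbol for 24 of the 34 members.

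In AdV-IL4 lungs 3 of the 21 tested T cell genes rose against AdV-NULL lungs (Lat, Il2rb and Lcp2) and 1 fell (Lef1), by limma with Benjamini-Hochberg adjustment over all 23824 tested probe sets and a threshold of 0.05. That is 14.3% of them higher and 4.76% lower, beside 6.34% higher and 6.63% lower of all 11984 tested genes. At an unadjusted p under 0.05 there were 8 (38.1%), beside 28.9% of all tested genes. All 3 AdV-IL4 arrays lay above all 3 AdV-NULL arrays for 6 of the 21 genes (28.6%) and below them for 1 (4.76%), beside 14.9% and 17.0% of all tested genes. Both the 6 and the 8 include Cd3e, which passed the filter only through the arrays with a cytokine virus. Its lowest AdV-IL4 signal, 138.1, was close to its highest AdV-NULL signal, 137.3. The median log2 difference of all 32 genes with a probe set, dim ones included, was 0.08, beside -0.005 for all genes, and 20 of the 32 were above 0, beside 49.4% of all genes. Without AdV-NULL mouse 1 and AdV-IL4 mouse 2, the muscle extremes, only Lef1 was still called. The count was 2 (Il2rb and Lef1) without any 1 array other than AdV-NULL mouse 2, and 7 without AdV-NULL mouse 2.

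In AdV-IL4d2 lungs 2 of the 21 rose against AdV-NULL lungs (Cd3g and Lat, 9.52%) and 0 fell by the same limma test, beside 0.859% higher and 0.401% lower of all tested genes. At an unadjusted p under 0.05 there were 9 (42.9%), beside 15.5% of all tested genes. The AdV-IL4d2 arrays all lay above the AdV-NULL arrays for 10 genes (47.6%, namely Cd3d, Cd3g, Cd247, Cd2, Cd5, Lat, Thy1, Bcl11b, Il2rb and Tbx21) and all below them for 1 gene (Lef1, 4.76%), beside 11.4% and 11.3% of all tested genes. The median log2 difference of the 32 genes was 0.20, beside 0 for all genes, and 23 of the 32 were above 0, beside 50.1% of all genes. The 2 calls were lost when the 2 muscle extremes were left out. Both comparisons use the same 3 AdV-NULL arrays, so their differences are not independent.

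**Figure D1:**
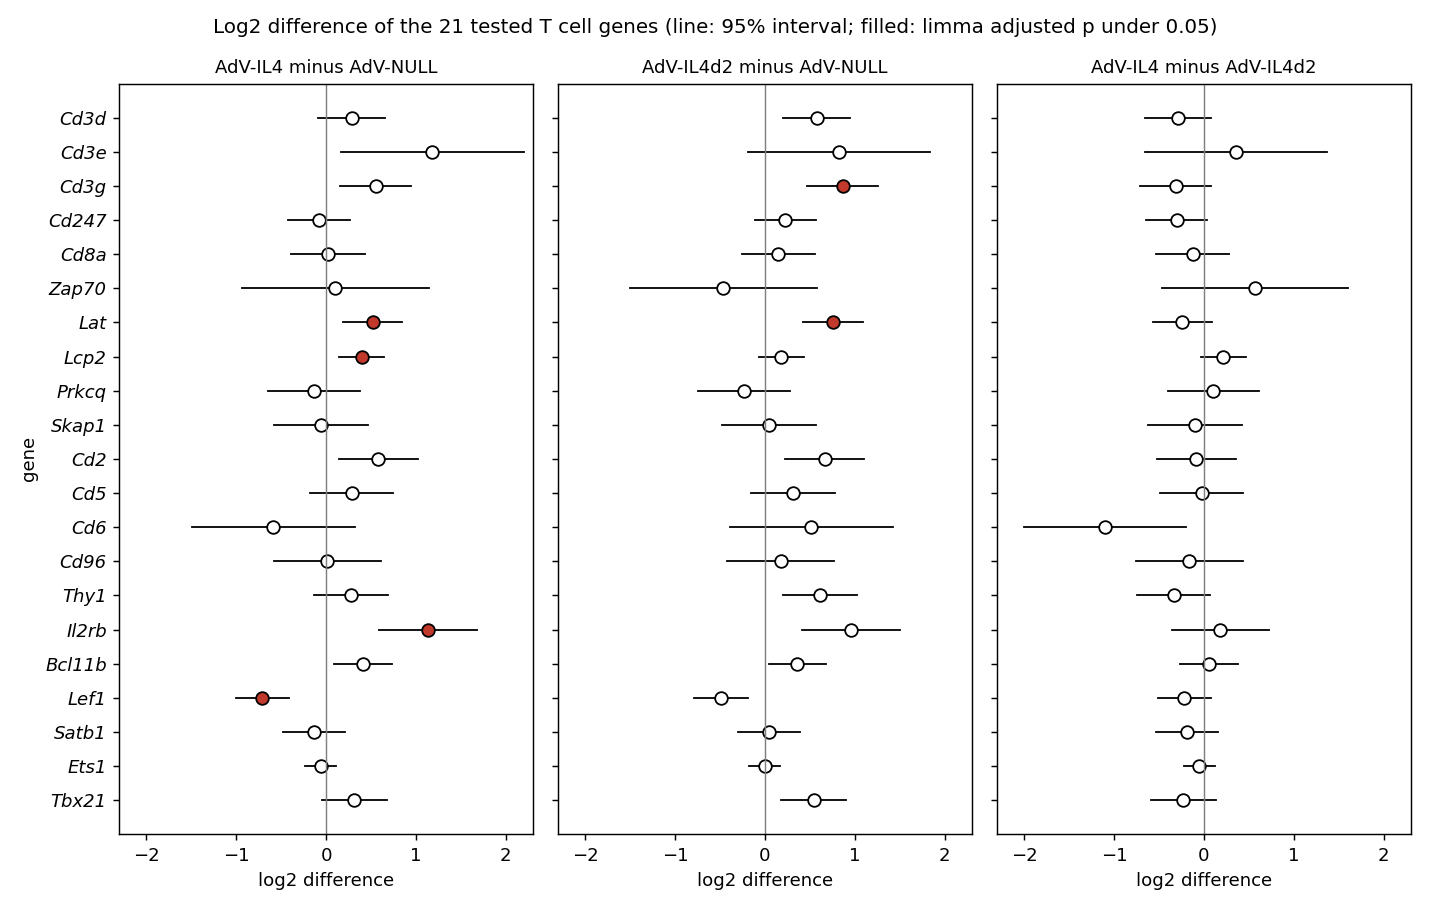
Log2 difference of the 21 tested T cell genes in the 3 comparisons, each with its 95% interval; filled points passed limma's adjusted p threshold of 0.05. Lat, Il2rb, Lcp2 and Lef1 are filled for AdV-IL4 against AdV-NULL, Cd3g and Lat for AdV-IL4d2 against AdV-NULL, and none for AdV-IL4 against AdV-IL4d2.

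Of the 4 tested chains of the receptor complex, Cd3g was called in AdV-IL4d2 lungs and no chain was called in AdV-IL4 lungs. Cd3g, the CD3 gamma chain, read 453.6, 476.7 and 694.4 in AdV-IL4 lungs, 706.3, 578.1 and 717.9 in AdV-IL4d2 lungs and 358.9, 437 and 291.2 in AdV-NULL lungs. Every array with a cytokine virus lay above every AdV-NULL array. Its log2 difference was 0.86 ± 0.18 (SE) in AdV-IL4d2 against AdV-NULL (1.82-fold, limma adjusted p = 0.0399) and 0.55 ± 0.18 in AdV-IL4 against AdV-NULL (1.47-fold, limma adjusted p = 0.0758). The call in AdV-IL4d2 lungs was lost without AdV-NULL mouse 1, without AdV-NULL mouse 3 or without any 1 AdV-IL4d2 array (log2 0.72 to 1.003 over the 9 fits that leave out 1 array). It was lost too without a filter on dim probe sets, without the intensity trend and with the replicate block (limma adjusted p = 0.077, 0.095 and 0.068).

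Cd3d, the CD3 delta chain, read 372.2, 449.5 and 444.8 in AdV-IL4 lungs, 504.9, 483.4 and 569.5 in AdV-IL4d2 lungs and 291, 459.5 and 300.4 in AdV-NULL lungs. The AdV-IL4d2 arrays were all above the other 6, and AdV-NULL mouse 2 lay above the AdV-IL4 arrays. Neither log2 difference passed the test, 0.28 in AdV-IL4 (limma adjusted p = 0.319) and 0.57 in AdV-IL4d2 lungs (limma adjusted p = 0.135). Cd3e, the CD3 epsilon chain, read 226.1, 214.6 and 138.1 in AdV-IL4 lungs, 215.5, 85.39 and 157.7 in AdV-IL4d2 lungs and 24.2, 103.2 and 137.3 in AdV-NULL lungs. Its AdV-NULL values were at or below the array median on all 3 arrays and spread widely, so Cd3e passed the filter only through the arrays with a cytokine virus. The Cd3e log2 difference in AdV-IL4 lungs of 1.18 ± 0.47 (SE) did not pass the test (limma adjusted p = 0.131). Cd247, the zeta chain, read 201.2, 239.9 and 239.1 in AdV-IL4 lungs, 314.7, 259.8 and 276.1 in AdV-IL4d2 lungs and 218.2, 243.8 and 258.6 in AdV-NULL lungs. Its AdV-IL4 and AdV-NULL arrays overlapped, with a log2 difference of -0.08 (95% interval -0.42 to 0.26).

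**Figure D2:**
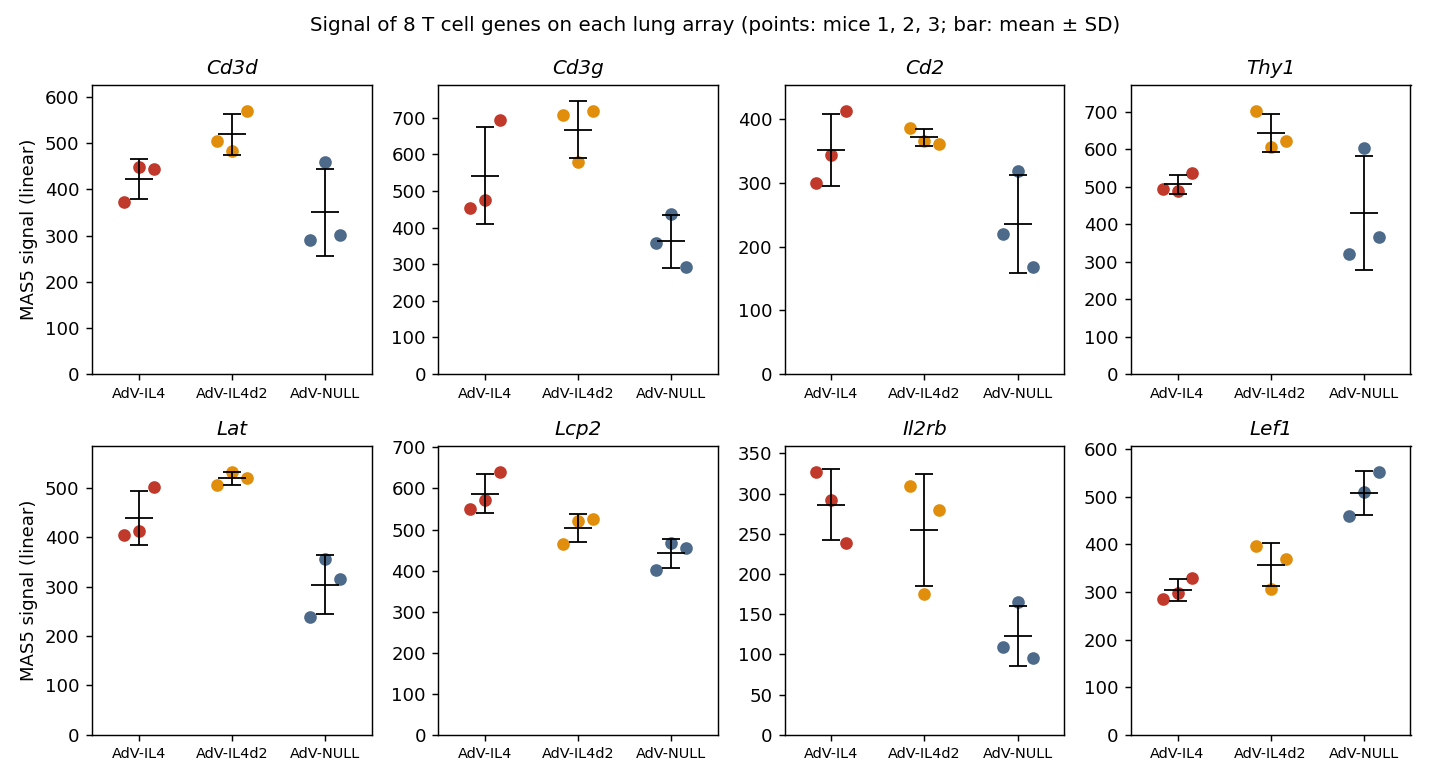
Linear MAS5 signal of 8 T cell genes on each lung array, with points for mice 1, 2 and 3 of a group and a bar for the mean ± SD (n = 3). Cd3g and Lat are higher on all 6 arrays with a cytokine virus than on the AdV-NULL arrays, and Lef1 is lower on all 6.

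The coreceptors that mark the 2 main T cell classes were dim or not called. Cd4, the coreceptor of helper T cells, read 24.62, 50.15 and 20.21 in AdV-IL4 lungs, 25.07, 28.45 and 20.74 in AdV-IL4d2 lungs and 31.53, 24.56 and 24.38 in AdV-NULL lungs. Cd4 was thus never above the array median, and it exceeded the highest negative-control signal of its own array (6.964 to 55.77 over the arrays) on 6 of 9 arrays, so it was not tested. Cd8a, a chain of the cytotoxic T cell coreceptor, read 269, 249.1 and 308.6 in AdV-IL4 lungs, 286.2, 390.3 and 243.9 in AdV-IL4d2 lungs and 316.8, 237.8 and 261.3 in AdV-NULL lungs, and the groups overlapped. Its log2 difference from AdV-NULL was 0.02 in AdV-IL4 (95% interval -0.39 to 0.43) and 0.15 in AdV-IL4d2 lungs (95% interval -0.26 to 0.56), and its other 2 tested probe sets gave 0.11 to 0.30. Cd8b1, the partner chain of Cd8a, was dim and untested, at 57.46, 81.45 and 153.9 in AdV-IL4 lungs, 193.9, 170.1 and 111.3 in AdV-IL4d2 lungs and 90.01, 124 and 155.9 in AdV-NULL lungs. Of 15 symbols written for the receptor's own constant regions, only Tcra had a single-symbol probe set, and it was too dim to test (highest signal 59.11). Of the markers that define T cells, Cd3d, Cd3g and Cd247 were above the array median on all 9 arrays, Cd3e on 3, and Cd4 on 0, and Tcra was untested.

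Among the signalling proteins the adaptors Lat and Lcp2 were called and the kinases Zap70 and Prkcq were not. Lat, the membrane adaptor that Zap70 phosphorylates, read 404.4, 412.3 and 502.2 in AdV-IL4 lungs, 506.8, 532.5 and 519.3 in AdV-IL4d2 lungs and 239.4, 357.1 and 316.7 in AdV-NULL lungs. All 6 arrays with a cytokine virus were above all AdV-NULL arrays. The log2 difference was 0.52 ± 0.15 (SE) in AdV-IL4 (1.43-fold, limma adjusted p = 0.0486) and 0.76 ± 0.15 in AdV-IL4d2 lungs (1.69-fold, limma adjusted p = 0.0318). In AdV-IL4 lungs the call held in 1 of 9 fits that leave out 1 array, the fit without AdV-NULL mouse 2 (log2 0.36 to 0.64), and in AdV-IL4d2 lungs in 4 of 9 (0.60 to 0.88), being lost without AdV-NULL mouse 1 or 3 or any 1 AdV-IL4d2 array. Scaling to the hybridisation controls took the AdV-IL4 difference to 0.09 (limma adjusted p = 0.747). With only the 2 groups fitted the AdV-IL4 call was lost too (limma adjusted p = 0.103). Without a filter on dim probe sets or without the intensity trend, Lat lost its call in both comparisons with AdV-NULL.

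Lcp2, a cytosolic adaptor that binds to the Lat complex and that myeloid cells and platelets also use, read 549.4, 571.8 and 640.2 in AdV-IL4 lungs, 463.9, 519.7 and 526.5 in AdV-IL4d2 lungs and 402.4, 467.8 and 455.3 in AdV-NULL lungs. The AdV-IL4 arrays were above all others. Its log2 difference was 0.40 ± 0.12 (SE) in AdV-IL4 (1.32-fold, limma adjusted p = 0.0473) and 0.18 in AdV-IL4d2 lungs (limma adjusted p = 0.520). The AdV-IL4 call was lost in each of the 9 fits that leave out 1 array (log2 0.33 to 0.44), and scaling to the hybridisation controls turned it to -0.04. Without a filter on dim probe sets, without the intensity trend and with only the 2 groups fitted it was lost as well (limma adjusted p = 0.0782, 0.055 and 0.085). Markers of dendritic cells and macrophages moved in the same comparison, 8 of 17 tested being higher and 1 lower in AdV-IL4 against AdV-NULL lungs. Of all tested genes 6.34% were higher and 6.63% lower. The part of dendritic cells and macrophages in the Lcp2 result was not tested.

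Zap70, the kinase that docks on the phosphorylated CD3 chains, varied most among the members within a group (SD 0.81 on the log2 scale, where the median member had 0.25 and the median gene 0.16). It read 283.1, 670.3 and 1030 in AdV-IL4 lungs, 731.1, 232.1 and 339.3 in AdV-IL4d2 lungs and 951.8, 418.9 and 394.4 in AdV-NULL lungs, with full overlap of the groups. Another tested Zap70 probe set read 176.1, 116.7 and 134 in AdV-IL4 lungs, 161.2, 198.7 and 195.6 in AdV-IL4d2 lungs and 137.2, 132.7 and 91.39 in AdV-NULL lungs. Its log2 difference in AdV-IL4d2 lungs was 0.57, opposite in sign to the -0.46 of the brightest probe set, and neither passed the test. A further tested Zap70 probe set, above the array median on all 9 arrays, gave 0.04 in AdV-IL4 and 0.106 in AdV-IL4d2 lungs. Prkcq, protein kinase C theta, and Skap1, an adaptor that links the receptor to integrins, overlapped between all groups, with log2 differences from -0.24 to 0.04 across the comparisons with AdV-NULL. Txk, a Tec family kinase, Trat1, a receptor-associated adaptor, Sh2d1a, the adaptor of SLAM receptors, and Ubash3a, a negative regulator of receptor signalling, were too dim to test. Sh2d1a read 58.96, 114.8 and 172.9 in AdV-IL4 lungs, 122.8, 103.3 and 46.56 in AdV-IL4d2 lungs and 14.28, 67.29 and 35.13 in AdV-NULL lungs.

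None of the 5 tested T cell surface proteins passed the test against AdV-NULL. Cd2, an adhesion receptor that T and natural killer cells share, read 299.2, 343.3 and 412.5 in AdV-IL4 lungs, 386.4, 365.8 and 361.8 in AdV-IL4d2 lungs and 219.9, 318.4 and 168.3 in AdV-NULL lungs. Its log2 difference was 0.58 in AdV-IL4 (limma adjusted p = 0.0903) and 0.67 in AdV-IL4d2 lungs (limma adjusted p = 0.144). Thy1, a glycoprotein of T cells and of some fibroblasts and neurons, read 493.8, 488.7 and 536.2 in AdV-IL4 lungs, 701.6, 606.4 and 622.7 in AdV-IL4d2 lungs and 321.5, 604 and 365.9 in AdV-NULL lungs. Every AdV-IL4d2 array was above every AdV-NULL array, by a narrow margin over AdV-NULL mouse 2, and the log2 difference of 0.61 did not pass the test (limma adjusted p = 0.147). Cd5 and Cd6, scavenger-family receptors that tune receptor signalling, and Cd96, a receptor of T and natural killer cells, had log2 differences from AdV-NULL between -0.59 and 0.51, none of them called. Cd27, a costimulatory receptor, and Cd40lg, the ligand that T cells present to CD40 on B cells, were dim, at 25.23 to 127.5 and 10.53 to 144.9 over the 9 arrays.

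Il2rb, the receptor chain that interleukin-2 and interleukin-15 share on T and natural killer cells, had the largest called difference of the members. It read 327, 292.3 and 239.2 in AdV-IL4 lungs, 309.4, 175.8 and 279.2 in AdV-IL4d2 lungs and 109, 165.4 and 95.32 in AdV-NULL lungs. All 6 arrays with a cytokine virus were above the AdV-NULL arrays. The log2 difference was 1.14 ± 0.25 (SE) in AdV-IL4 (2.20-fold, limma adjusted p = 0.0138) and 0.96 ± 0.25 in AdV-IL4d2 lungs (1.94-fold, limma adjusted p = 0.0905). The AdV-IL4 call held in all 9 fits that leave out 1 array (log2 0.99 to 1.35) and was lost when both muscle extremes were left out (log2 1.06, limma adjusted p = 0.0910). A second, dim Il2rb probe set ran the other way, at 25.82, 49.83 and 78.25 in AdV-IL4 lungs, 108.4, 145.8 and 88.83 in AdV-IL4d2 lungs and 95.95, 112.2 and 118.3 in AdV-NULL lungs, and was not tested. Il2ra, the interleukin-2 receptor alpha chain, was dim, at 77.2, 80.91 and 75.53 in AdV-IL4 lungs, 99.31, 6.625 and 52.59 in AdV-IL4d2 lungs and 26.78, 83.83 and 93.97 in AdV-NULL lungs. None of the 11 natural killer and cytotoxic cell markers tested was called in any of the 3 comparisons by limma, with 1 at an unadjusted p under 0.05 in AdV-IL4 against AdV-NULL, 0 in AdV-IL4d2 against AdV-NULL and 2 in AdV-IL4 against AdV-IL4d2. Of all tested genes 28.9%, 15.5% and 18.5% were under that unadjusted p. Called higher and lower were 6.34% and 6.63%, 0.859% and 0.401%, and 1.18% and 1.05% of all tested genes in the same order. With shares this low, 0 of 11 says little on these cells.

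Of the 5 tested transcription factors only Lef1 was called. Lef1, an HMG-box factor of naive T cells and of Wnt signalling in many tissues, read 284.6, 297.9 and 328.6 in AdV-IL4 lungs, 395.8, 306.9 and 369.5 in AdV-IL4d2 lungs and 459.6, 509.2 and 551.6 in AdV-NULL lungs. All 6 arrays with a cytokine virus were below the AdV-NULL arrays. It fell by 0.71 ± 0.14 (SE) on the log2 scale in AdV-IL4 lungs (limma adjusted p = 0.00743) in all 9 fits that leave out 1 array (-0.78 to -0.65), and without both muscle extremes. In AdV-IL4d2 lungs its log2 difference was -0.49 (limma adjusted p = 0.113). Fibroblast and endothelial markers were mixed in AdV-IL4 against AdV-NULL lungs, with 4 of 16 higher and 5 lower, beside 6.34% and 6.63% of all tested genes. The part of fibroblasts and endothelial cells in the Lef1 result was not tested.

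Bcl11b, which maintains T cell identity, read 629.7, 468.8 and 551.8 in AdV-IL4 lungs, 548.5, 521.3 and 509.2 in AdV-IL4d2 lungs and 378.7, 497.8 and 354.5 in AdV-NULL lungs. Its log2 difference was 0.41 in AdV-IL4 (limma adjusted p = 0.0965) and 0.36 in AdV-IL4d2 lungs (limma adjusted p = 0.281), while its other tested probe set gave -0.38 and -0.21. Tbx21, the factor of type 1 helper T cells and natural killer cells, read 218, 212.6 and 258.5 in AdV-IL4 lungs, 282.3, 236.3 and 297.8 in AdV-IL4d2 lungs and 168.4, 194.4 and 180.6 in AdV-NULL lungs. Its groups did not overlap with AdV-NULL, and the log2 differences of 0.31 in AdV-IL4 and 0.54 in AdV-IL4d2 lungs did not pass the test (limma adjusted p = 0.259 and 0.148). Gata3, the type 2 helper factor, was dim and untested, at 135.8, 112.8 and 175.7 in AdV-IL4 lungs, 143.1, 105.2 and 158.1 in AdV-IL4d2 lungs and 134.9, 123.7 and 153.5 in AdV-NULL lungs, and the groups overlapped. Foxp3, the factor of regulatory T cells, was dim as well, at 50.36, 119.3 and 88.29 in AdV-IL4 lungs, 113.4, 141.7 and 109.2 in AdV-IL4d2 lungs and 121.4, 135.3 and 84.85 in AdV-NULL lungs. Satb1, a chromatin organiser, and Ets1, which endothelial cells also make, were not called in the main fit, and Ets1 had the brightest signal of the members, 5659 to 6417 over the 9 arrays. The Satb1 log2 difference in AdV-IL4 lungs was -0.139. Its other tested probe sets gave -0.075, -0.282 and 0.515, none of them called. The last passed the filter only through the arrays with a cytokine virus.

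AdV-IL4 and AdV-IL4d2 lungs were compared directly, since the series asks whether the splice variant acts differently. The Il4 probe set itself was higher on every AdV-IL4d2 array than on every AdV-IL4 array, and its part in this comparison was not tested. By limma 0 of the 21 genes were called higher and 0 lower, beside 1.18% and 1.05% of all tested genes, with 1 gene (Cd6, 4.76%) at an unadjusted p under 0.05, beside 18.5% of all tested genes. The AdV-IL4 arrays lay above the AdV-IL4d2 arrays for 1 gene (Lcp2, 4.76%) and below them for 6 (28.6%, namely Cd3d, Cd247, Cd6, Lat, Thy1 and Satb1), beside 11.1% and 13.0% of all tested genes. The log2 differences of the 32 genes had a median of -0.11, beside -0.008 for all genes, and 11 were above 0, beside 48.6% of all genes. For 20 of the 21 tested genes the 95% interval held 0, and over all 21 the bounds ran from -2.01 to 1.61. For 18 of the 21 the interval lay inside 1 log2 unit either way. Cd6 read 81.1, 35.39 and 141.4 in AdV-IL4 lungs, against 174.4, 159.7 and 216.5 in AdV-IL4d2 lungs (log2 -1.10, 95% interval -2.01 to -0.20, limma adjusted p = 0.211). With arrays scaled to the hybridisation controls instead, all genes shifted by a median of -0.55 in this comparison and 13 of the 21 were called lower.

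The number of T cell genes called against AdV-NULL went up when AdV-NULL mouse 2 was left out and did not go up when any other array was. AdV-NULL mouse 2 was the highest of the 3 AdV-NULL arrays for 12 of the 21 tested T cell genes, where it was highest for 36% of all genes, and AdV-IL4 mouse 3 was the highest of its group for 13 (30.1% of all genes). Without AdV-NULL mouse 2, 7 of the 20 genes then tested were called in AdV-IL4 lungs (Cd3g, Cd2, Lat, Thy1, Bcl11b and Il2rb higher, Lef1 lower) and 6 in AdV-IL4d2 lungs (Cd3d, Cd3g, Cd2, Lat, Thy1 and Il2rb higher). Over all probe sets, 2098 of 23566 were called in AdV-IL4 lungs without this mouse and 2546 of 23824 with it, and in AdV-IL4d2 lungs 406 without it and 314 with it. The leukocyte gene Ptprc was the highest of the AdV-NULL arrays in the same mouse, at 5737, 5750 and 6141 in AdV-IL4 lungs, 5678, 5632 and 5554 in AdV-IL4d2 lungs and 3716, 5120 and 4007 in AdV-NULL lungs. So was the mean log2 level of 11 housekeeping genes, at 12.53, 12.72 and 12.58 in AdV-NULL mice 1, 2 and 3. What sets this mouse apart was not tested.

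**Figure D3:**
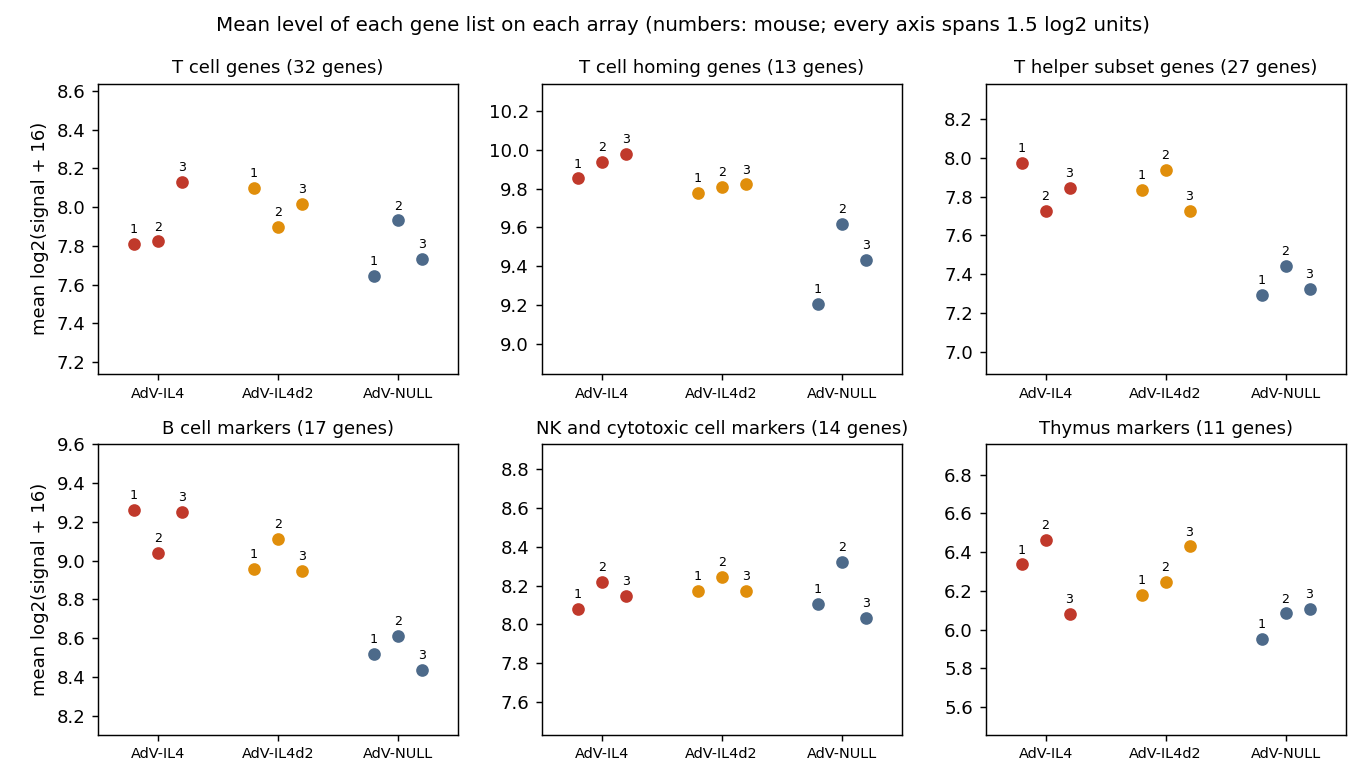
Mean log2(signal + 16) of gene lists on each array, labelled by mouse number, with every axis spanning 1.5 log2 units. For the T cell genes AdV-IL4 arrays are at 7.81 to 8.13, AdV-IL4d2 arrays at 7.90 to 8.10 and AdV-NULL arrays at 7.65 to 7.93.

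Of 42 other genes of receptor signalling that were tested, 14 rose and 1 fell (Ppp3cb, named after its value was seen) in AdV-IL4 against AdV-NULL lungs, and 1 rose in AdV-IL4d2 against AdV-NULL lungs, by limma adjusted over all probe sets (6 and 1 higher without the muscle extremes). The median log2 difference of the 46 with a probe set was 0.22 in AdV-IL4 and 0.16 in AdV-IL4d2 lungs, beside -0.005 and 0 for all genes. Called higher and lower were 6.34% and 6.63% of all tested genes in AdV-IL4, and 0.859% and 0.401% in AdV-IL4d2 lungs. Ctla4, the inhibitory receptor of activated and regulatory T cells, read 249.3, 204.4 and 268.9 in AdV-IL4 lungs, 218.4, 218.3 and 256.7 in AdV-IL4d2 lungs and 47.51, 93.81 and 88.43 in AdV-NULL lungs. It rose by 1.51 on the log2 scale in AdV-IL4 (limma adjusted p = 0.00293) and by 1.45 in AdV-IL4d2 lungs (limma adjusted p = 0.0114), the AdV-IL4d2 call being lost without AdV-IL4d2 mouse 3. On the AdV-NULL arrays Ctla4 was below the array medians (161.8 to 164.5), so it passed the filter only through the arrays with a cytokine virus. Icos, a costimulatory receptor, read 608.2, 478.2 and 511.2 in AdV-IL4 lungs, 420.6, 324.3 and 447.5 in AdV-IL4d2 lungs and 236.6, 304.7 and 193.3 in AdV-NULL lungs, and was called in AdV-IL4 lungs (log2 1.09, limma adjusted p = 0.00314). Malt1, a protease that carries the receptor signal to NF-kappaB, read 1689, 1294 and 1438 in AdV-IL4 lungs, 809.4, 876.4 and 657.5 in AdV-IL4d2 lungs and 495.9, 795.2 and 519.7 in AdV-NULL lungs. It was 1.29 higher on the log2 scale in AdV-IL4 than in AdV-NULL lungs (limma adjusted p = 0.00101). Map4k1, a kinase that restrains receptor signalling, rose in AdV-IL4 lungs too (2.06-fold). Its call was lost without the muscle extremes and with scaling to the hybridisation controls (log2 0.63, limma adjusted p = 0.0646).

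Of 15 T helper subset genes tested, 7 rose in AdV-IL4 and 2 in AdV-IL4d2 lungs (4 and 2 without the muscle extremes), with Il4 itself, the gene that the virus carries, among both, and the median log2 difference of the 27 with a probe set was 0.40 in AdV-IL4 and 0.33 in AdV-IL4d2 lungs. Of all tested genes 6.34% rose in AdV-IL4 and 0.859% in AdV-IL4d2 lungs, and the median over all genes was -0.005 and 0. Irf4 and Batf, partner factors in activated T cells that B and dendritic cells also use, rose 4.74-fold and 2.14-fold in AdV-IL4 lungs. Irf4 was below the array median on the AdV-NULL arrays (103.6, 75.66 and 16.87), so it passed the filter only through the arrays with a cytokine virus. Havcr2, an inhibitory receptor of T cells and some myeloid cells, rose 1.80-fold in AdV-IL4 lungs (limma adjusted p = 0.0220), a call lost without AdV-NULL mouse 1 or 3, without AdV-IL4 mouse 2 or 3 and without the muscle extremes. Scaling to the hybridisation controls lost the Havcr2 call too (log2 0.44, limma adjusted p = 0.211). Cxcr3, a chemokine receptor of type 1 T cells, read 403.2, 359.2 and 388.7 in AdV-IL4 lungs, 357.1, 428.3 and 344.9 in AdV-IL4d2 lungs and 244.2, 221 and 230.3 in AdV-NULL lungs, and rose in both (limma adjusted p = 0.00799 and 0.0350), the AdV-IL4d2 call being lost in 7 of the 9 fits that leave out 1 array, those without AdV-IL4 mouse 3 or any 1 AdV-IL4d2 or AdV-NULL array. It was lost too without the muscle extremes (limma adjusted p = 0.0908), where Irf4 was called beside Il4 in AdV-IL4d2 lungs, with the replicate block (limma adjusted p = 0.0626) and with only the 2 groups fitted (limma adjusted p = 0.0609). Scaling to the hybridisation controls and fitting without a filter on dim probe sets lost this Cxcr3 call as well (limma adjusted p = 0.079 and 0.0721). Of 13 T cell homing genes, 4 rose in AdV-IL4 and 1 in AdV-IL4d2 lungs (3 and 0 without the muscle extremes), with a median log2 difference of 0.43 and 0.40. Itgae, an integrin chain of tissue-resident T cells and some dendritic cells, read 1111, 1023 and 1443 in AdV-IL4 lungs, 913.5, 759.3 and 700.7 in AdV-IL4d2 lungs and 280.1, 500.7 and 450.8 in AdV-NULL lungs. It rose by 1.53 on the log2 scale in AdV-IL4 (limma adjusted p = 0.000754) and by 0.95 in AdV-IL4d2 lungs (limma adjusted p = 0.0379), the AdV-IL4d2 call being lost without AdV-NULL mouse 1 or 3 or any 1 AdV-IL4d2 array. With the mean of the gene's probe sets the AdV-IL4d2 call was lost too (log2 0.665, limma adjusted p = 0.223). The same held without a filter on dim probe sets, without the intensity trend and with the replicate block (limma adjusted p = 0.0721, 0.1025 and 0.0573). Il7r, the interleukin-7 receptor of resting T cells, and Cd69, an early activation and residence marker, rose 2.08-fold and 1.88-fold in AdV-IL4 lungs. Cd44, an adhesion receptor of memory T cells and other leukocytes, rose 1.43-fold there (limma adjusted p = 0.0169), a call lost without AdV-NULL mouse 1 or 3, without AdV-IL4 mouse 3 and without the muscle extremes. The Cd44 call was lost too without the intensity trend (limma adjusted p = 0.0515). Scaling to the hybridisation controls lost the AdV-IL4 calls of Cd44 (log2 0.065, limma adjusted p = 0.793) and Cd69 (log2 0.48, limma adjusted p = 0.0778).

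Other leukocytes moved beside the T cell genes. Of 17 B cell markers tested, 9 rose in AdV-IL4 and 4 in AdV-IL4d2 lungs (5 and 3 without the muscle extremes), and of 10 plasma cell markers 6 and 3 rose and 1 and 0 fell. The 9 include Cd79a, named after its value was seen. Cd79a was below the array median on every AdV-NULL array (104.5, 67.58 and 159.2), so it passed the filter only through the arrays with a cytokine virus. The 6 include Irf4, which passed the filter in the same way and is also counted among the T helper subset genes. Of all tested genes 6.34% rose and 6.63% fell in AdV-IL4 lungs, and 0.859% rose and 0.401% fell in AdV-IL4d2 lungs. Of 17 dendritic cell and macrophage markers 0 were called in AdV-IL4d2 against AdV-NULL lungs by limma, with 6 at an unadjusted p under 0.05, beside 15.5% of all tested genes. Of 6 lymphoid tissue markers 1 rose in AdV-IL4 lungs, Cr2, which is also among the 9 B cell markers. Of 6 platelet markers 1 rose and 1 fell there, and of 3 markers of innate lymphoid type 2 and mast cells 1 rose. That gene was Arg1 (9.33-fold, limma adjusted p = 0.000192), named after its value was seen, while Klrg1 and Kit were not called. Arg1 was below the array median on every AdV-IL4d2 and AdV-NULL array, so it passed the filter only through the AdV-IL4 arrays. The count of this list thus rests on Arg1 alone. Of 11 thymus markers only 1 was bright enough to test and the highest signal was 225.3. Of 11 housekeeping genes 2 rose in AdV-IL4 lungs. In AdV-IL4d2 against AdV-NULL lungs 0 genes of the lymphoid tissue, platelet, innate lymphoid and mast cell, fibroblast and endothelial, muscle or housekeeping lists were called by limma, with 4, 0, 0, 4, 5 and 1 at an unadjusted p under 0.05. Of all tested genes 15.5% were under that unadjusted p. The part of these cell types in the T cell results was not tested.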

How the data were processed

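Total lung RNA was labelled with biotin and hybridised to 9 Affymetrix mouse arrays of 45101 probe sets, 1 per mouse. The deposited values are intensity values, MAS5 signals on a linear scale. Per the submitters' processing notes, Affymetrix Expression Console 2.0, MAS5 and GCOS were used, with no role given for each. The values themselves have the same 2% trimmed mean on every array. No scan date, detection call or depth was analysed here, so the number of arrays limits the precision.

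Signals were taken as log2(signal + 16). Testing was limited to the 23824 probe sets that exceeded their own array's median on 3 or more of the 9 arrays, without the 64 control probe sets. limma 3.58.1 (R 4.3.3; lmFit, and eBayes with an intensity trend) was fitted over all 9 arrays with 6 residual degrees of freedom, and p-values were Benjamini-Hochberg adjusted over all tested probe sets, with a threshold of 0.05. A fold change is on the log2(signal + 16) scale, which understates dim genes. A gene is represented by its tested probe set with the highest mean; symbols come from the platform annotation (34958 probe sets with 1 symbol, 932 with several, 9211 without one here). The model was run on simulated data drawn independently for each probe set, without differences between whole arrays. That run therefore does not cover muscle content, RNA integrity or scaling.

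The members and gene lists were chosen with earlier results of these data known. The 32 members with a single-symbol probe set are each named. Each array's value is given for the called members and for the receptor chains, coreceptors and lineage factors. Of the other lists the called genes with the largest differences are named from those on T cells, up to 4 per list and comparison. Counts are given for the rest, with Arg1, Cd79a and Cr2 named besides. Alternatives changed the pseudocount, filter, normalization, scaling, variance trend, replicate block, probe set rule and arrays.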

Additional observations from a re-analysis of the deposited data

Results flagged for a closer look

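Tested here were the 21 T cell genes, 42 other receptor signalling genes, 15 helper subset genes and 13 homing genes. Of all these, 2 were called between AdV-IL4 and AdV-IL4d2 lungs by limma, both receptor signalling genes and both higher in AdV-IL4 lungs. Of all tested genes 1.18% were called higher and 1.05% lower, so the count is near the share of all genes. Malt1, the protease that links the receptor to NF-kappaB, was higher in AdV-IL4 lungs by 0.904 on the log2 scale (1.87-fold, limma adjusted p = 0.0256), with all 3 AdV-IL4 arrays above all 3 AdV-IL4d2 arrays. The call was lost in 4 of the 9 fits that leave out 1 array, those without AdV-IL4 mouse 1 or 3 or AdV-IL4d2 mouse 1 or 3 (0.79 to 0.99), and also without the intensity trend (limma adjusted p = 0.0777) and with scaling to the hybridisation controls (log2 0.34, limma adjusted p = 0.150). Orai1, the pore of the calcium channel that opens after receptor engagement, read 1427, 1409 and 1313 in AdV-IL4 lungs, 994.3, 968.6 and 1013 in AdV-IL4d2 lungs and 1145, 1353 and 1155 in AdV-NULL lungs. Its log2 difference between AdV-IL4 and AdV-IL4d2 was 0.472 (1.39-fold, limma adjusted p = 0.0284), with all AdV-IL4 arrays above and all AdV-NULL arrays also above the AdV-IL4d2 arrays. That call was lost in 5 of the 9 fits that leave out 1 array, those without AdV-IL4 mouse 1 or 2 or any 1 AdV-IL4d2 array (0.45 to 0.51). It was lost too without the muscle extremes (limma adjusted p = 0.0873), with the mean of a gene's probe sets (limma adjusted p = 0.182), without the intensity trend (limma adjusted p = 0.0742) and with scaling to the hybridisation controls (log2 -0.093, limma adjusted p = 0.683).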

How the results depend on the processing

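Over 81 single-gene differences, 1555 values were computed under alternatives. Of these 53 turned sign, 98 lost a call and 24 gained one, some of which also turned sign; the cause was not tested unless named. Scaled to the hybridisation controls, all genes shifted by a median of -0.433 for AdV-IL4 against AdV-NULL, 0.12 for AdV-IL4d2 against AdV-NULL and -0.554 for AdV-IL4 against AdV-IL4d2. Under it AdV-IL4 against AdV-NULL turned to -0.037 for Lcp2, -0.145 for Cd3d, -0.124 for Cd5, -0.4 for Cd8a, -0.382 for Cd96, -0.02 for Bcl11b, -0.099 for Tbx21, -0.155 for Thy1 and -0.326 for Zap70. AdV-IL4d2 against AdV-NULL turned to 0.118 for Ets1, and AdV-IL4 against AdV-IL4d2 to -0.504 for Bcl11b, -0.168 for Cd3e, -0.359 for Il2rb, -0.341 for Lcp2, -0.438 for Prkcq and -0.093 for Orai1. It gave 7822 called probe sets (299 higher, 7523 lower) for AdV-IL4 against AdV-NULL, and 13394 probe sets (89 higher, 13305 lower) and 13 T cell genes for AdV-IL4 against AdV-IL4d2. Under this scaling Satb1 (log2 -0.574, limma adjusted p = 0.040) and Ets1 (log2 -0.506, limma adjusted p = 0.0389) gained calls as lower in AdV-IL4 against AdV-NULL. Il2rb gained one as higher in AdV-IL4d2 against AdV-NULL (log2 1.085, limma adjusted p = 0.0279). With the mean of a gene's probe sets, Bcl11b turned to -0.057 (AdV-IL4 against AdV-IL4d2), Ets1 to 0.027 in AdV-IL4 and 0.075 in AdV-IL4d2 lungs, Satb1 to 0.005 in AdV-IL4 and Zap70 to 0.072 in AdV-IL4d2 lungs. Without the 2 muscle extremes, Cd5 turned to 0.025 (AdV-IL4 against AdV-IL4d2), Satb1 to 0.048 in AdV-IL4 and Ets1 to 0.01 in AdV-IL4d2 lungs. That setting left 1, 0 and 0 T cell genes in the 3 comparisons in that order, and 1060, 203 and 230 probe sets, with fewer arrays in the fit.

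The main counts were 4, 2 and 0 T cell genes and 2546, 314 and 416 probe sets for AdV-IL4 against AdV-NULL, AdV-IL4d2 against AdV-NULL and AdV-IL4 against AdV-IL4d2. Leaving out 1 array gave 2 to 7, 0 to 6 and 0 to 0 T cell genes, and 1320 to 2207, 156 to 419 and 110 to 460 probe sets. Without a filter 2 and 0 T cell genes were called against AdV-NULL, and 244 probe sets in AdV-IL4 against AdV-IL4d2. Without the intensity trend the T cell counts were 2 and 0, and 195 and 165 probe sets were called in the comparisons with AdV-IL4d2. A fit on only the 2 groups compared called 2 T cell genes in AdV-IL4 lungs. With the mouse number as a replicate block, 4, 1 and 0 T cell genes and 2427, 312 and 384 probe sets were called, and Cd3g lost its call in AdV-IL4d2 lungs. Deviations from the group mean correlated with r -0.069 to 0.116 for same-numbered mice, against -0.133 to 0.132 for other pairs. Between AdV-IL4 and AdV-IL4d2 mice r was 0.116, 0.102 and 0.071 for same numbers and -0.089 to -0.013 for the other pairs. These small values do not settle whether the numbers pair the samples, and the main fit took the mice as unpaired.

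With 1 array left out, 29 uncalled values turned sign. For AdV-IL4 against AdV-NULL the ranges were -0.064 to 0.131 for Cd8a, -0.298 to 0.605 for Zap70, -0.126 to 0.19 for Cd96, -0.181 to 0.131 for Skap1, -0.328 to 0.064 for Prkcq and -0.314 to 0.052 for Satb1. For AdV-IL4d2 against AdV-NULL they were -0.03 to 0.293 for Cd8a, -0.112 to 0.286 for Skap1, -0.13 to 0.236 for Satb1 and -0.057 to 0.031 for Ets1. For AdV-IL4 against AdV-IL4d2 they were -0.27 to 0.052 for Cd8a, -0.202 to 0.019 for Cd2, -0.24 to 0.134 for Cd5, -0.047 to 0.16 for Bcl11b, -0.24 to 0.014 for Cd96, -0.047 to 0.334 for Il2rb, -0.341 to 0.088 for Skap1 and -0.131 to 0.3 for Prkcq. The 11 dim members, with signals of 6.625 to 193.9, allow no statement on a difference.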
